A study of Mus musculus with 46 samples.

Results

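The leukocyte marker genes comprised 44 mouse genes of the 56980 genes in the hSS2 count table and the 56941 in the hSS1 count table, and all 44 were found in both. They were picked by name for the blood cell lineage each is known to mark, and the rule uses no measured value. By lineage they were 15 macrophage and monocyte genes, 5 genes shared by myeloid cells or carried by nearly all leukocytes, 2 dendritic cell genes, 9 T-cell genes, 3 T-cell regulation genes, 5 natural killer (NK) and cytotoxic genes, 2 B-cell genes, 2 neutrophil genes and 1 mast cell gene. RNA was sequenced from 46 synovial sarcoma (SyS) tumors of the mouse hindlimb. In the hSS2 background, where tumors express the SS18::SSX2 fusion, there were 13 control tumors with the fusion alone, 8 that also carried a conditional knockout of Pbrm1 (Pbrm1-fl), 8 of Arid1a (Arid1a-fl) and 8 of Arid1b (Arid1b-fl). In the hSS1 background, where tumors express SS18::SSX1, there were 5 control tumors with the fusion alone and 4 Pbrm1-fl tumors. The products of Arid1a and Arid1b replace one another in the canonical BAF chromatin remodeler, and that of Pbrm1 sits in its PBAF relative. Per the study, the fusion was expressed from the Rosa26 locus. Both it and the loss of the floxed alleles were started by TATCre protein injected into the limb. The mice were of both sexes and of a mixed strain, which the study's reporting summary writes as CB57Bl/6-svJ. Only cells that took up Cre could express the fusion or lose the floxed gene, so the tumors were not knockouts of the whole animal. Each library came from 1 tumor, and mice carried different numbers in the labels. Tumors are named here by group and by a replicate number that has no order.

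Leukocytes enter a tumor from the blood or settle in it as resident cells, and a lysate of a whole tumor mixes their RNA with that of the tumor cells, vessels and adjoining muscle. Macrophages and their monocyte precursors depend on signals through CSF1R and clear dead cells and debris. Dendritic cells carry antigen to T cells, T cells read it through a receptor built around the CD3 chains, NK cells kill without prior priming, B cells make antibody, neutrophils arrive early in acute inflammation, and mast cells release stored granules. Synovial sarcoma is known as a tumor with few T cells. In bulk RNA, fewer cells of a type and less RNA per cell cannot be told apart, so every level below is the level of a transcript in the tumor and not a number of cells.

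Levels are given as CPM, the reads of a gene scaled to a fixed library total, after scaling each library by the trimmed mean of M-values (TMM), and were scaled separately in the 2 backgrounds. Library totals ran from 10137668 to 21294657 reads, and a count of 0 allows a level of up to 0.141 to 0.292 CPM in hSS2 tumors and 0.214 to 0.306 CPM in hSS1 tumors (3 reads, counting error only). The whole-gene counts of the floxed genes, which do not isolate the deleted part, were lower in every comparison. Pbrm1 was at 171 to 316 CPM in hSS2 controls and 95.0 to 139 CPM in hSS2 Pbrm1-fl tumors, and at 275 to 373 CPM in hSS1 controls and 102 to 252 CPM in hSS1 Pbrm1-fl tumors, with no overlap in either background. Arid1a (control median 505 CPM, Arid1a-fl 247 CPM) and Arid1b (323 and 186 CPM) overlapped between groups. Mouse numbers in the labels fell in ranges that followed the floxed gene. All hSS2 Pbrm1-fl numbers were 2000 or over, all Arid1a-fl numbers were under 1000, and all Arid1b-fl numbers lay from 1000 to under 2000. Controls were spread over the ranges, so the range could be held constant by using only the controls of the same range.

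Before the results, 3 hSS2 tumors need to be set apart. Control tumor 4 and Pbrm1-fl tumor 1 exceeded all 35 other hSS2 tumors in both B-cell markers, all 5 NK and cytotoxic markers and 7 of 9 T-cell markers, but in only 2 of 15 macrophage markers and in neither the mast nor any neutrophil marker. This pair was picked for its B-cell levels after the values were seen, so its rank in the B-cell markers follows from that choice. Cd3e was 7.36 and 9.44 CPM in these tumors against at most 3.26 CPM elsewhere in hSS2. Ms4a1, which encodes the B-cell antigen CD20, was 7.0 and 6.72 CPM against at most 1.12 CPM. They were also the highest for 5 of 6 genes of a lymphoid tissue list and 4 of 6 adipocyte genes. Lymphocytes carry some genes of that lymphoid tissue list too, so its count is not separate from the lymphocyte levels. Cr2, carried by follicular dendritic cells and B cells, was 4.93 and 3.21 CPM against at most 1.26 CPM. Adipoq, made by fat cells, was 28 and 21.2 CPM against at most 12.9 CPM, and the part of adjoining lymphoid or fat tissue in their lymphocyte levels was not tested. Arid1b-fl tumor 5 was the highest for 8 members, namely S100a8, S100a9, Cd68, Lyz2, Trem2, Itgam, Tyrobp and Fcer1g, all of them myeloid or neutrophil genes. Its S100a8, listed here as a neutrophil marker, was 8.06 CPM against at most 1.17 CPM in the other hSS2 tumors. Its summed red-cell transcripts reached 47848 CPM and its Ppbp, a platelet chemokine, 380 CPM against at most 1.76 CPM. The part of blood or of blood-forming cells in this tumor was not tested.

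Macrophage transcripts dominated the leukocyte signal. On a per-length scale (RPKM, which also divides by transcript length), the median over hSS2 tumors was highest for Lyz2, the lysozyme of macrophages and other myeloid cells, at 67.0 RPKM. The complement genes C1qb, C1qa and C1qc followed at 31, 25.6 and 14.9 RPKM, then Tyrobp (11.6 RPKM), Cd68 (11.4 RPKM) and Fcer1g (9.89 RPKM). The mast cell carboxypeptidase Cpa3 stood at 9.07 RPKM, above Csf1r at 7.67 RPKM. Most lymphocyte genes were low in this order, with exceptions in Lck (1.94 RPKM, rank 14 of 44) and Cd4 (0.731 RPKM, rank 20). Cd3e had a median of 0.0613 RPKM, Ms4a1 of 0.0165 RPKM, and the NK receptor Klrb1c was at 0 in the median tumor. Lyz2 also led in hSS1, at 32.4 RPKM.

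**Figure D1:**
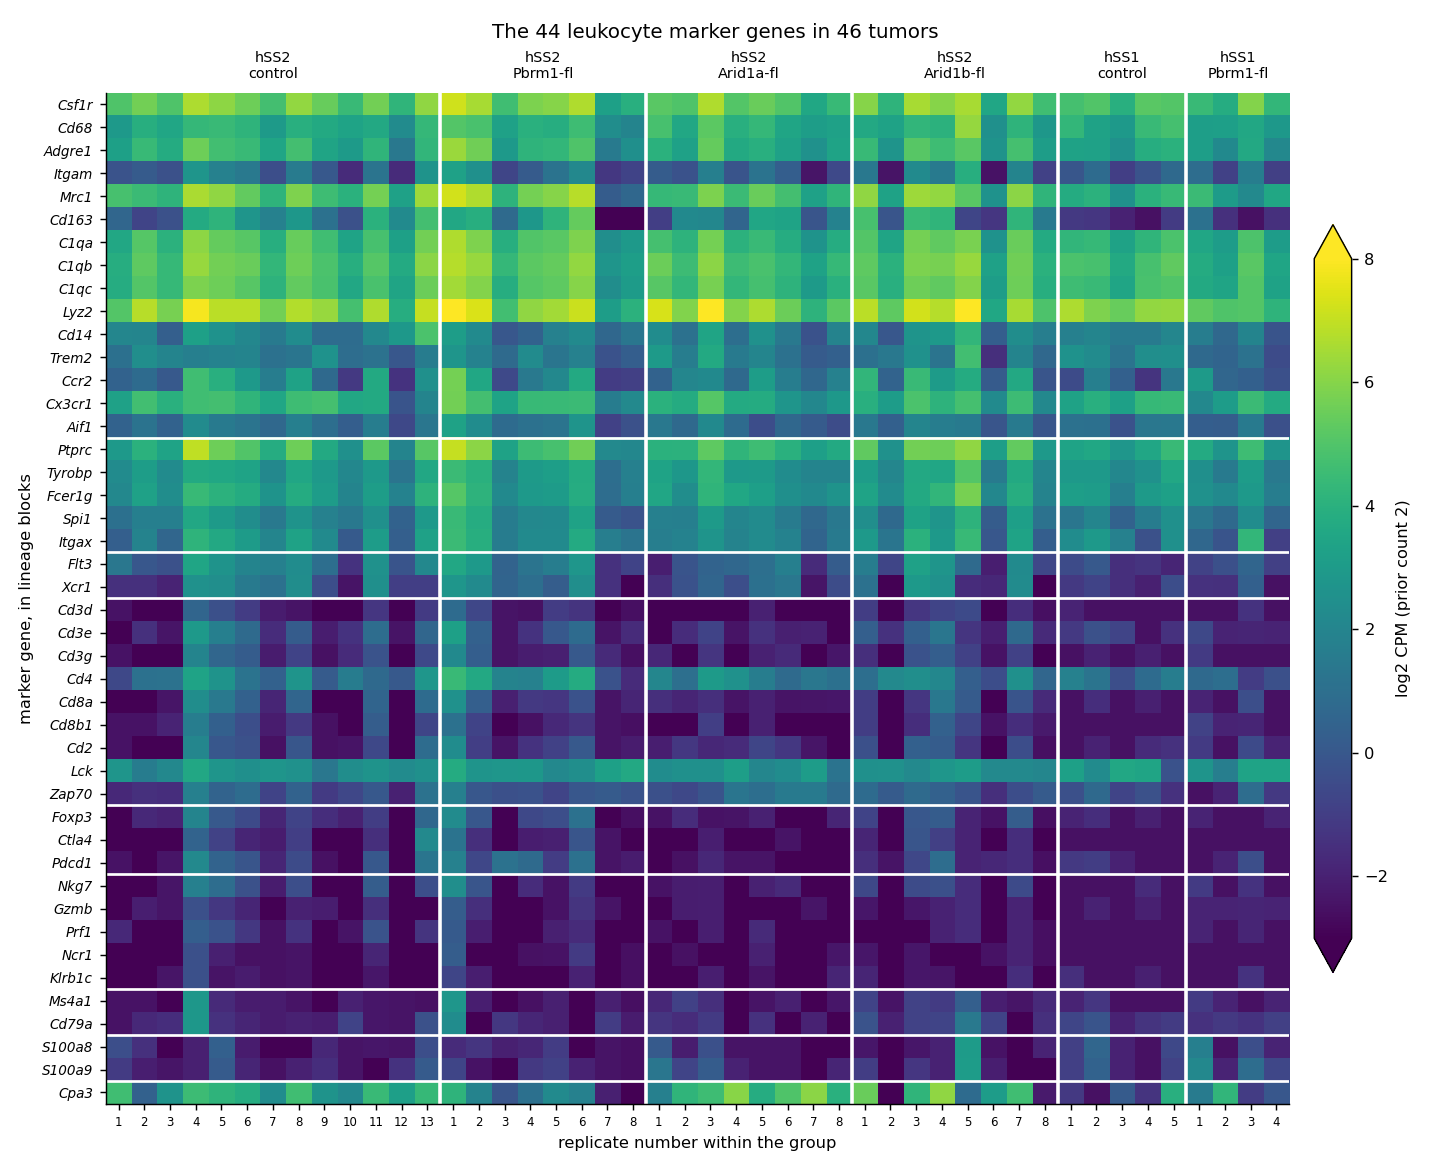
Heat map of the 44 marker genes (rows, in lineage order) in all 46 tumors (columns, by group and replicate number), colored by log2 CPM on the scale of the color bar. Macrophage and shared myeloid rows are high in nearly every tumor, while most T-cell, NK and B-cell rows, though not those of Lck and Cd4, are at the dark end of the scale in most columns and brighter in hSS2 control tumor 4 and Pbrm1-fl tumor 1.

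Csf1r, the receptor that macrophages need for survival, was detected in all 46 tumors. Its level ran from 18.2 to 99.4 CPM in hSS2 controls (median 47.6), from 9.48 to 146 in Pbrm1-fl (median 59.6), from 11.7 to 103 in Arid1a-fl (median 32.5) and from 11.3 to 95.1 in Arid1b-fl tumors (median 63.9). In hSS1 it was 26.9, 32.3, 15.3, 35.9 and 32.7 CPM in the controls and 21.9, 13.9, 61.5 and 19.1 CPM in the Pbrm1-fl tumors. The groups overlapped over most of their range. C1qa, part of the complement component that tags debris for uptake, was spread alike, with medians of 28, 34.2, 17.1 and 36.1 CPM in hSS2 control, Pbrm1-fl, Arid1a-fl and Arid1b-fl tumors and a lowest value of 5.26 CPM. In hSS1 it was 19, 20.4, 10.03, 18.2 and 29.6 CPM in controls and 11.3, 8.33, 30.5 and 8.27 CPM in Pbrm1-fl tumors. Mrc1, the mannose receptor of resident macrophages, had medians of 28, 57.3, 22.3 and 51.8 CPM in the same hSS2 groups, with a range of 1.04 to 151 CPM in Pbrm1-fl tumors that spanned all other hSS2 values. Cd163, the scavenger receptor for hemoglobin, varied most of the 15 macrophage genes over the hSS2 tumors, with an SD of 2.24 on the log2 scale against 0.88 to 1.86 for the others. It ran from 0.468 to 25.9 CPM in hSS2 controls and from 0 to 41.5 CPM in Pbrm1-fl tumors. The range was 0.397 to 11.3 CPM in Arid1a-fl and 0.288 to 27.9 CPM in Arid1b-fl tumors. In hSS1, which was scaled separately, no tumor was above 1.99 CPM, and a difference from hSS2 was not tested. Ccr2, which draws monocytes out of the blood, ran from 0.264 to 24.5 CPM in hSS2 controls and up to 51.3 CPM in Pbrm1-fl tumor 1.

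The 5 shared genes tracked the macrophage genes. Ptprc encodes CD45, the surface phosphatase of all nucleated blood cells, and is the closest of the 44 to a measure of leukocytes as a whole. It ran from 3.83 to 125 CPM in hSS2 controls (median 16), from 4.12 to 131 in Pbrm1-fl (median 25.3), from 9.06 to 38.1 in Arid1a-fl (median 16.4) and from 5.75 to 71.6 in Arid1b-fl tumors (median 40.2). In hSS1 it was 10.3, 11.6, 6.69, 11.4 and 21.5 CPM in controls and 13.2, 6.34, 24.1 and 6.29 CPM in Pbrm1-fl tumors. The 2 values over 100 CPM belonged to control tumor 4 and Pbrm1-fl tumor 1. Dendritic cell genes were lower. Flt3, the receptor that dendritic cell precursors depend on, had medians of 3.36, 2.63, 1.16 and 2.32 CPM in hSS2 control, Pbrm1-fl, Arid1a-fl and Arid1b-fl tumors. In hSS1 it was 0.532, 0.885, 0.171, 0.214 and 0.096 CPM in controls and 0.38, 0.634, 1.33 and 0.36 CPM in Pbrm1-fl tumors. All lay below the hSS2 control median, but the backgrounds were scaled separately and this difference was not tested. Summed skeletal muscle transcripts also differed, with control medians of 12232 CPM in hSS2 and 39.1 CPM in hSS1. Xcr1, the chemokine receptor of the dendritic cells that prime CD8 T cells, had medians of 0.662, 1.6, 0.696 and 1.13 CPM and a highest value of 7.52 CPM.

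T-cell transcripts were scarce and uneven. Cd3e, a chain of the T-cell receptor complex, had medians of 0.256 CPM in hSS2 controls, 0.58 in Pbrm1-fl, 0.128 in Arid1a-fl and 0.709 in Arid1b-fl tumors, and 2 tumors held 42.4% of its summed hSS2 level. In hSS1 it was 0.266, 0.644, 0.429, 0 and 0.192 CPM in controls and 0.475, 0.0905, 0.102 and 0.0899 CPM in Pbrm1-fl tumors. Cd8a, of cytotoxic T cells, reached 5.11 CPM in controls and 5.84 CPM in Pbrm1-fl tumors but no more than 0.227 CPM in any Arid1a-fl tumor. Foxp3, the factor that defines regulatory T cells, likewise reached 3.83, 4.77 and 1.06 CPM in control, Pbrm1-fl and Arid1b-fl tumors and 0.208 CPM in Arid1a-fl tumors. Arid1a-fl tumors thus lacked the high tail of these genes, while their low ends lay at or near 0 as in the other groups. Lck, the kinase that starts T-cell receptor signaling, went its own way, with medians of 5.68, 6.79, 5.36 and 5.04 CPM in the hSS2 groups and 9.40 and 8.23 CPM in hSS1 controls and Pbrm1-fl tumors. Across the 37 hSS2 tumors the rank correlation of Lck with Cd3e was 0.22, and that of Cd2 with Cd3e was 0.82 (descriptions over tumors of all 4 groups that share their scaling). The level of Lck in these tumors therefore did not follow the receptor complex it serves.

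NK, B-cell and neutrophil genes had group medians near or under the level that 3 reads give. Ncr1, the activating receptor that marks NK cells, was at 0 in 27 of 46 tumors, among them all 9 hSS1 tumors, and nowhere exceeded 1.07 CPM. Gzmb, the granule protease of killer cells, did not exceed 1.07 CPM either. Nkg7 reached 3.35, 5.36, 0.184 and 0.684 CPM in hSS2 control, Pbrm1-fl, Arid1a-fl and Arid1b-fl tumors. Ms4a1 had a median of 0.066 CPM in hSS2 controls, and control tumor 4 and Pbrm1-fl tumor 1 held 72.4% of its summed hSS2 level. Cd79a, the signaling chain of the B-cell receptor, had 54.7% of its summed level in them. For Csf1r the highest 2 tumors held 13.1%, and over the 15 macrophage genes this share ran from 13.05% for C1qc to 27.7% for Ccr2. Among T-cell genes it ran from 11.4% for Lck to 43.5% for Cd3g. S100a8 stayed at or under 1.17 CPM in all hSS2 tumors except Arid1b-fl tumor 5.

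Cpa3, a protease stored in mast cell granules, was the exception among the low-abundance lineages. It ran from 1.23 to 24.7 CPM in hSS2 controls (median 13.9), from 0 to 17.5 in Pbrm1-fl (median 2.68), from 3.29 to 68.6 in Arid1a-fl (median 21.2) and from 0 to 71.3 in Arid1b-fl tumors (median 13.3). In hSS1 it was 0.266, 0, 0.943, 0.214 and 15 CPM in controls and 2.85, 18.6, 0.306 and 0.809 CPM in Pbrm1-fl tumors. Most hSS1 tumors were thus under 1 CPM, with 1 high tumor in each group.

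**Figure D2:**
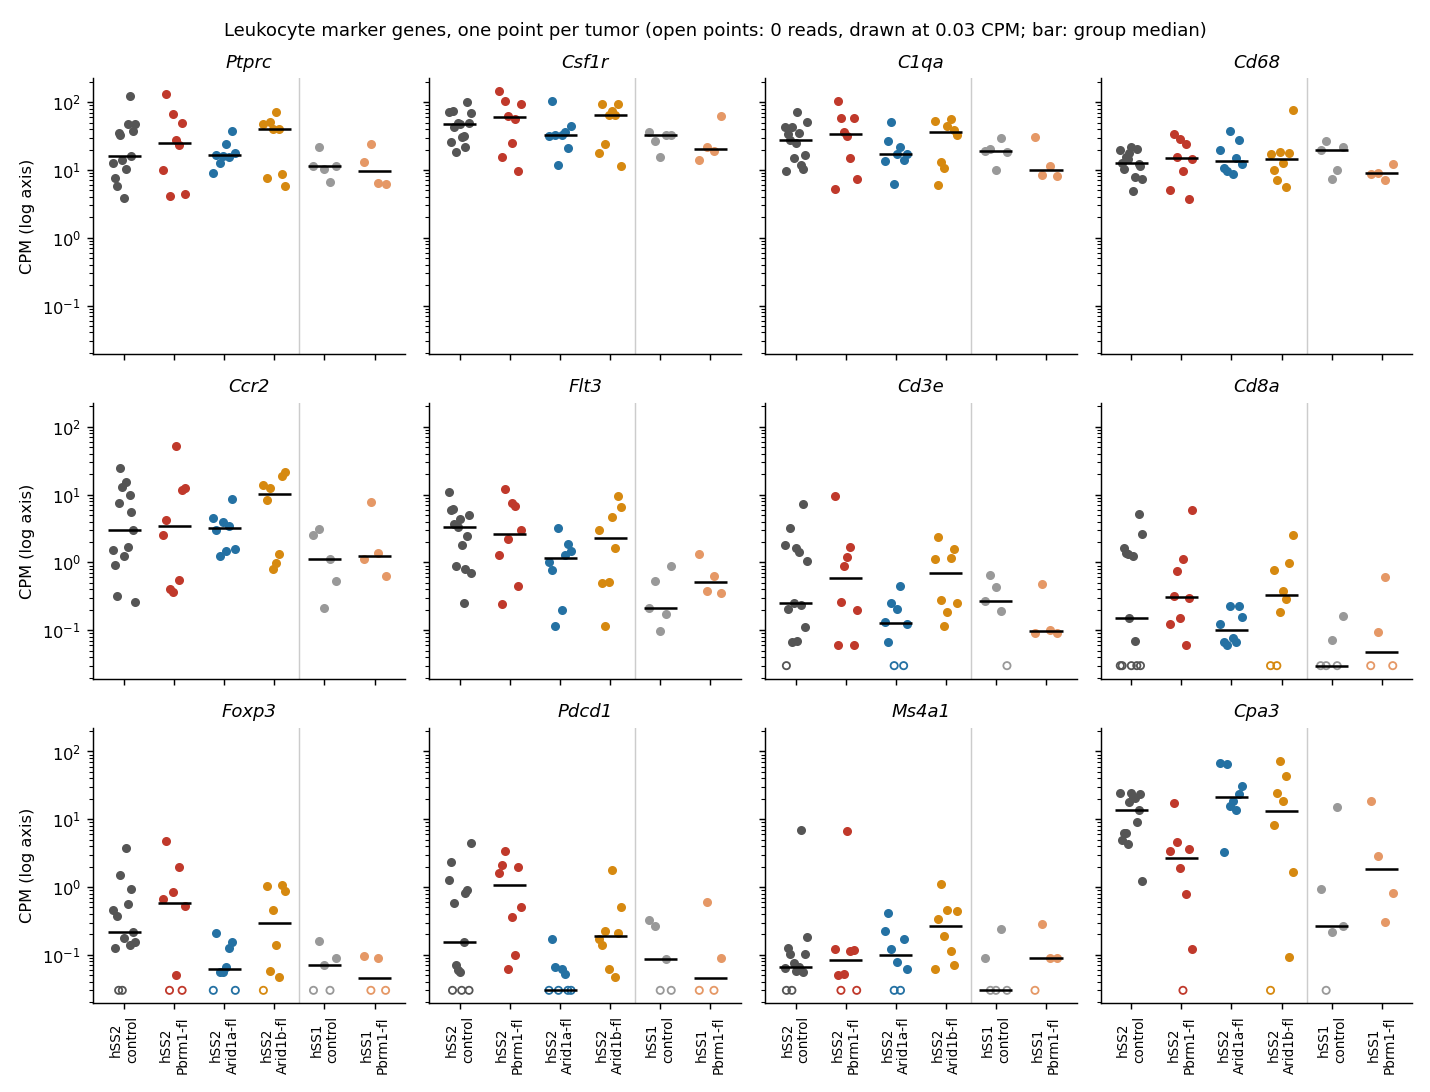
Level of selected marker genes (CPM, log axis) in the 6 groups, with 1 point per tumor, a line at the group median and open points for tumors with 0 reads. Csf1r overlaps in all groups at 9.48 to 146 CPM, and the Arid1a-fl points of Cd3e stay at or under 0.453 CPM.

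The promoters of 2 markers are shown, 1 of a gene high in the RPKM order (C1qc, rank 4 of 44) and 1 of a low one (Cd3e, rank 34). They are given 5′ to 3′ on the gene's strand, from 250 bases before to 50 bases after the start, from RefSeq (GRCm38.p6). Of the member genes, 34 matched 40 promoters in the RefSeq table, and C1qa was not among them. The letters GAGGAAGT, a form of the site bound by the macrophage and B-cell factor PU.1 (encoded by the member Spi1), were searched on both strands. They occurred in 2 of the 40 member promoters (5.0%), those of C1qc and S100a8, and in 3.202% of the 32851 promoters in the table. Capitals mark the match on the opposite strand, and C1qc was chosen for it after its values were seen. Cd3e holds no match, which says only that these letters are not in this window.
C1qc, chr4:136892865-136893164, minus strand: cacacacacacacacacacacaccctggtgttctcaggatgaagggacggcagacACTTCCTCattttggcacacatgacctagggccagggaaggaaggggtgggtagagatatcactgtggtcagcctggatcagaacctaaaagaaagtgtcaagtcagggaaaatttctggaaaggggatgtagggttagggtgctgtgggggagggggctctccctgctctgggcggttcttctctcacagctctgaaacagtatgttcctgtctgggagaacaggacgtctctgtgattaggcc
Cd3e, chr9:45009562-45009861, minus strand: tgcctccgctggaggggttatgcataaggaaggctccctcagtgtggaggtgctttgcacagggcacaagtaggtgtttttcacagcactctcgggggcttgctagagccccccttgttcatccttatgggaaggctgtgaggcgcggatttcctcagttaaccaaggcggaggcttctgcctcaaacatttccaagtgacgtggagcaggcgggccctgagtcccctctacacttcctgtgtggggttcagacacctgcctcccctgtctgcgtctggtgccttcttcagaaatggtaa

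Within hSS2, macrophage genes were high or low together from tumor to tumor. Over the 37 tumors, the rank correlation with Csf1r had a median of 0.92 over the 14 other macrophage genes, from 0.68 for Cd163 to 0.98 for C1qa, and of 0.94 over the 5 shared genes. T-cell genes followed Csf1r less closely, with a median of 0.74 over 7 genes and values of 0.09 for Lck and 0.30 for Zap70, a kinase of the same receptor pathway. Nkg7, a granule protein of cytotoxic cells, had 0.80, and Cpa3 had 0.28. These values describe tumors of 4 genotypes that share library depth and scaling, and tumors with much muscle or with lymphoid and fat transcripts were among them. In the 9 hSS1 tumors, the median over 13 macrophage genes was 0.73, and Ccr2 had -0.1.

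**Figure D3:**
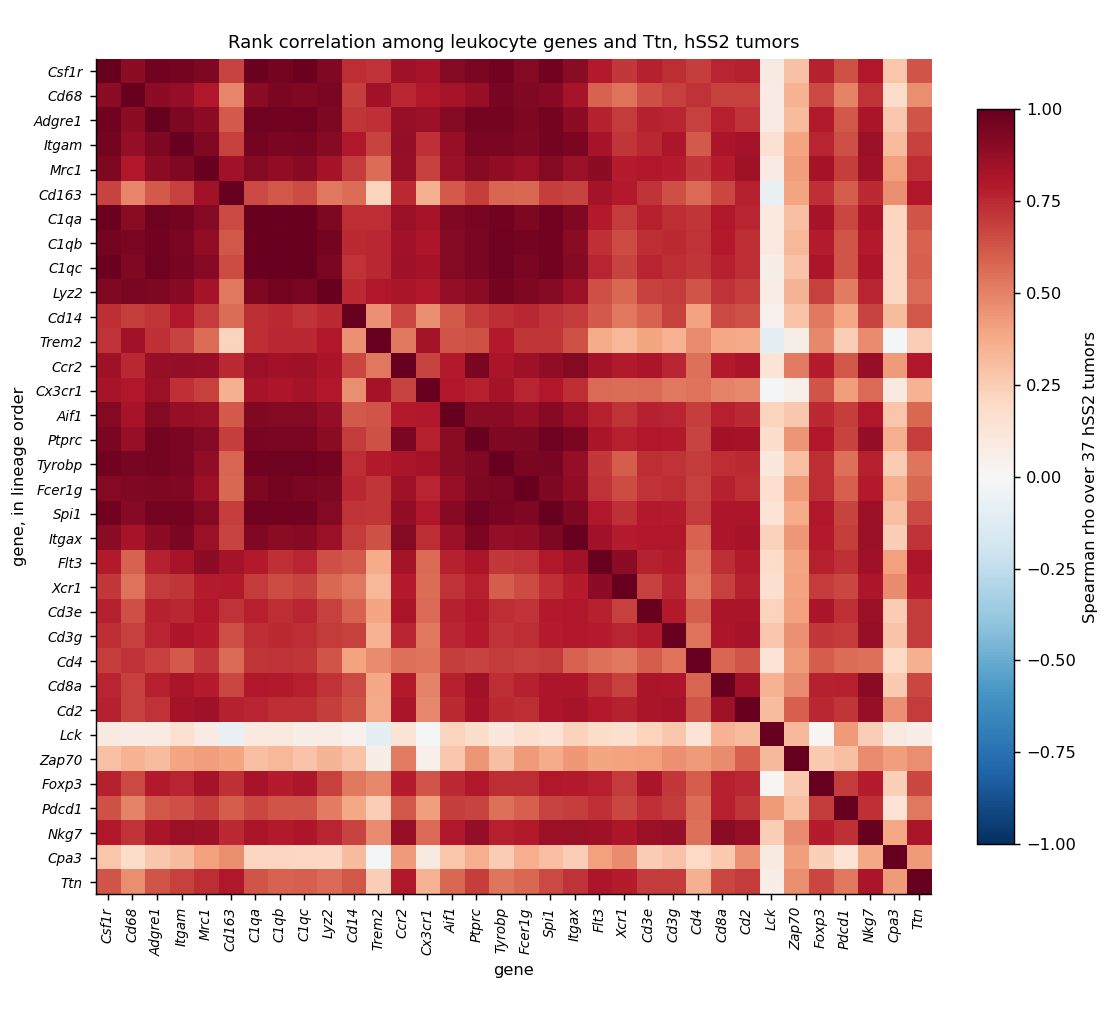
Spearman rank correlation between every pair of marker genes that passed the expression filter, and Ttn, over the 37 hSS2 tumors, in lineage order on a scale from -1 (blue) to 1 (red). The macrophage and shared myeloid genes form a block of high values around a median of 0.92 with Csf1r, while the rows of Lck (0.09 with Csf1r) and Cpa3 (0.28) stay pale.

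Pairs of genes that stand for different lineages were then tested over the tumors (Pearson's r on log2 CPM and Spearman's rho, permutation tests with 100000 resamples, 2-sided, adjusted by Benjamini-Hochberg over the 12 pairs computed in both backgrounds). Cd3e followed Csf1r over the 37 hSS2 tumors with r = 0.74 and rho = 0.77, each with p = 1e-05, the smallest these permutations can give (adjusted p = 4e-05 for r). Without the 2 tumors farthest from the median of Csf1r, r was 0.74. Within mouse number ranges it was 0.57 under 1000, 0.71 from 1000 to under 2000 and 0.82 at 2000 and over, and it was 0.69 without control tumor 4 and Pbrm1-fl tumor 1. Flt3 followed Csf1r in the same manner, with r = 0.81 and rho = 0.79, 0.77 without the farthest 2 tumors and 0.58, 0.84 and 0.93 within the ranges. Under mouse number 1000 neither pair passed (adjusted permutation p of r = 0.112 for both). Inside the Ttn ranges described below, Cd3e with Csf1r had r = 0.43 in the 18 tumors with little Ttn (adjusted p = 0.154 by permutation) and 0.88 in the 19 with much Ttn (adjusted p = 4e-05 by permutation), and Flt3 with Csf1r had 0.70 and 0.87 (adjusted p = 0.00936 and 4e-05 by permutation). Over all hSS2 tumors, macrophage, T-cell and dendritic cell transcripts were thus high together, but for the T-cell gene the relation did not pass among tumors with little Ttn. Control tumor 4 and Pbrm1-fl tumor 1 were among the 19 tumors with much Ttn, and no value inside that range leaves them out. Cpa3 gave lower values. Its r with Csf1r was 0.37 (adjusted p = 0.0328 by permutation), its rho was 0.28 (adjusted p = 0.139 by permutation), r without the farthest 2 tumors was 0.31, and within the mouse number ranges r was -0.059, 0.56 and 0.71, so the relation did not hold in every range. With each gene centered on its genotype group, r was 0.53 and rho 0.52 (adjusted p = 0.00111 and 0.00175 by permutation), and inside the Ttn ranges r was 0.25 and 0.06.

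Ttn encodes titin, the giant spring protein of muscle fibers, and served as the marker of skeletal muscle in a sample. In hSS2 it fell into separate ranges, with 18 tumors from 4.56 to 541 CPM and 19 tumors from 2578 to 55343 CPM, so no value over all hSS2 tumors is given for it. The ranges were set after the values were seen, and p was adjusted over the 8 hSS2 pairs within a range. In the 19 tumors with much Ttn, r with Ttn was 0.69 for Ptprc (permutation p = 0.00089, adjusted 0.00237), 0.66 for Csf1r (p = 0.00215), 0.67 for Cd3e (p = 0.00186) and 0.67 for Flt3 (p = 0.00164, adjusted p = 0.00287 for each of the last 3). The rho values were 0.68, 0.67, 0.67 and 0.66, each with an adjusted permutation p of 0.00328. Without the 2 of these tumors farthest from their median of Ttn, r was 0.58, 0.53, 0.57 and 0.47. Leukocyte transcripts of 3 lineages were thus higher where titin was higher among these tumors. Control tumor 4 and Pbrm1-fl tumor 1, set apart above for their lymphocyte and fat transcripts, were among the 19. Their part in these values was not tested. Cpa3 had r = 0.15 and rho = 0.09 there (adjusted p = 0.63 and 0.81 by permutation). In the 18 tumors with little Ttn, r was 0.35 for Ptprc, 0.43 for Csf1r, 0.03 for Cd3e, 0.44 for Flt3 and 0.10 for Cpa3, and none of these passed the permutation test (lowest adjusted p = 0.154). By mouse number range, where tumors on both sides of the gap are mixed, r of Csf1r with Ttn was 0.14 under 1000, 0.76 from 1000 to under 2000 and 0.82 at 2000 and over. That of Cpa3 with Ttn was 0.19, 0.76 and 0.62 in the same order. The low values of Cpa3 above hold only inside the Ttn ranges. In hSS1, where 8 of 9 tumors had at most 576 CPM of Ttn, no pair passed.

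**Figure D4:**
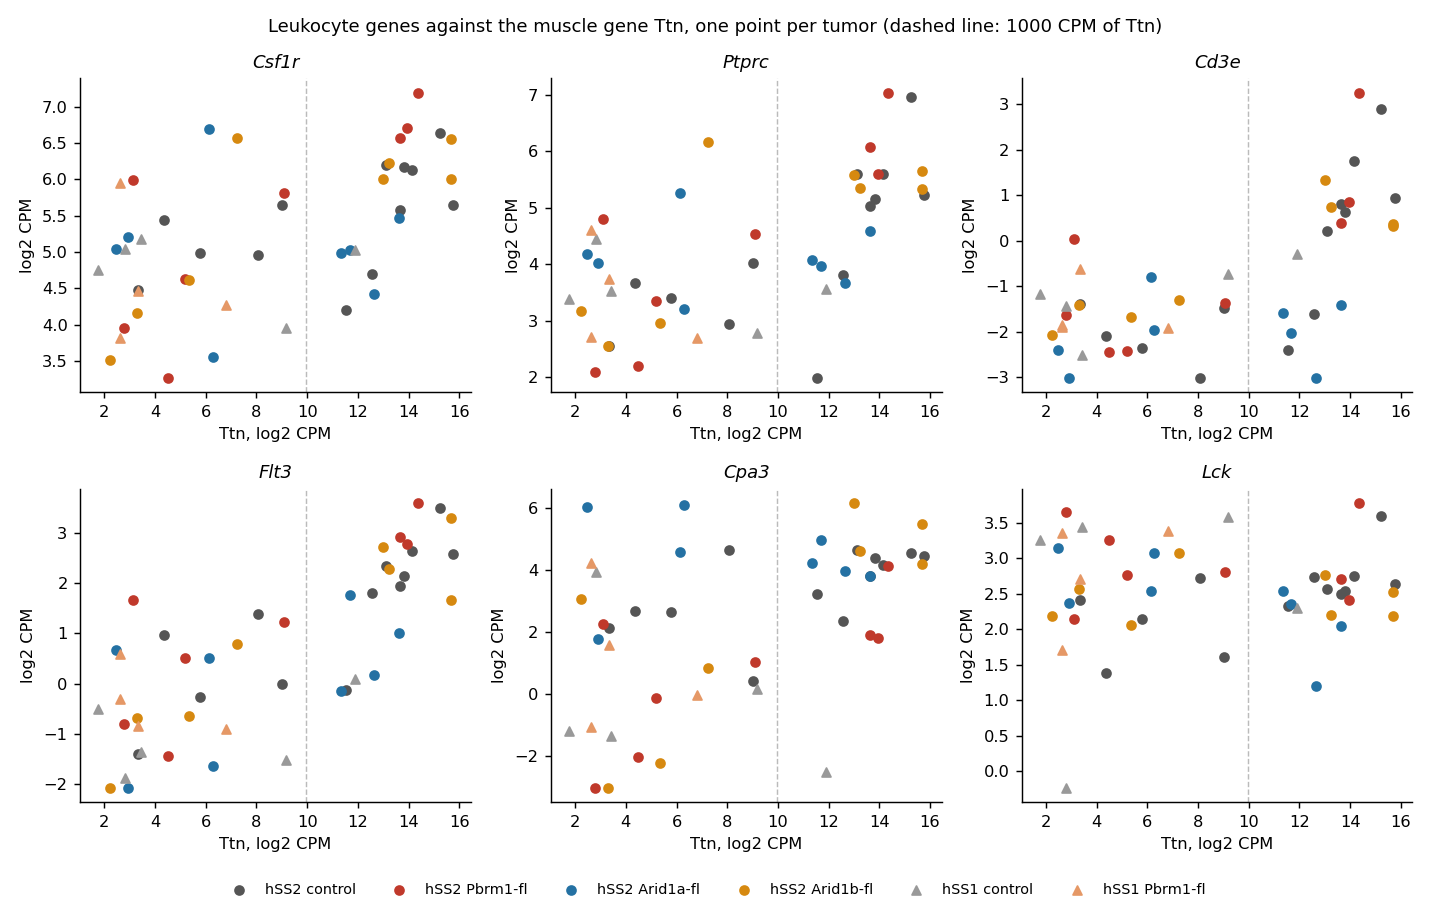
Level of leukocyte genes against that of Ttn (both in log2 CPM) in the 37 hSS2 (circles) and 9 hSS1 tumors (triangles), colored by group, with a dashed line at 1000 CPM of Ttn. In hSS2 Ttn leaves a gap between 541 and 2578 CPM, and above it Ptprc, Csf1r, Cd3e and Flt3 climb with Ttn (r from 0.66 to 0.69) while Cpa3 does not (r = 0.15).

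The study compared tumors with and without each conditional knockout. Each gene was tested with edgeR's quasi-likelihood test and its p adjusted by Benjamini-Hochberg over all genes tested. Shares of all genes called by DESeq2 are over genes with any read. That base counts genes DESeq2 left without an adjusted p, so these shares may be too low. In hSS2, 33 of the 44 members passed the filter on low counts, and the other 11, which lie in the T-cell, T-cell regulation, NK, B-cell and neutrophil lists, were not tested. The 3 hSS2 comparisons share their 13 control tumors. Fold changes are log2 of the knockout over the control.

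In hSS2 Pbrm1-fl tumors no member passed the test. Of the 33 tested members, 30 had a fold change above 0, with a median of 0.37 against -0.0042 over all genes. None was called at an adjusted p of 0.05 by edgeR or by DESeq2, where 7.35% of all genes were called by edgeR and 5.63% by DESeq2. At an unadjusted p under 0.05, 2 were higher and 1 was lower by edgeR and 3 higher and 1 lower by DESeq2, against 22.4% of all genes in either direction. The median was -0.07 without Pbrm1-fl tumor 1, 0.64 without control tumor 4, 0.15 without both, 0.19 with the controls of the same mouse number range and 0.68 with Ttn as a covariate. With that covariate 6 members were higher and 1 was lower at an unadjusted p under 0.05. The share of all genes at this threshold was not counted in that fit, so the count cannot be judged against it. Cd4, the co-receptor of helper T cells, was 21.6, 12.4, 3.63, 3.41, 8.07, 13.3, 0.734 and 0.201 CPM in the Pbrm1-fl tumors and from 0.531 to 10.2 CPM in controls (median 2.11). Of these, 3 Pbrm1-fl tumors lay above every control and 1 lay below every control. The change was 1.22 log2 units (SE 0.56, adjusted p = 0.181), and that of Lck was 0.50 (SE 0.24, adjusted p = 0.202). Cpa3 went the other way, at -1.80 (SE 0.80, adjusted p = 0.206), with overlapping groups.

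In hSS2 Arid1a-fl tumors the lowest fold changes of members were those of Pdcd1, Cd3e, Nkg7, Cd8a and Foxp3, genes of T cells and cytotoxic cells, and Pdcd1 was the only member called. Pdcd1 (ENSMUSG00000026285, chr1:94038305-94052553, minus strand, mm10) encodes PD-1, the inhibitory receptor of activated T cells. It had 6 reads in all over the 8 Arid1a-fl tumors, of which 4 had none, and a highest level of 0.17 CPM. In controls it had 179 reads, with a lowest level of 0 (3 of 13 tumors), a median of 0.153 and a highest level of 4.44 CPM. The groups overlapped, and the 2 highest controls were tumor 4 at 4.44 CPM and tumor 13 at 2.31 CPM. On the log2 scale Pdcd1 fell by 3.96 (SE 1.28, adjusted p = 0.0442). With the controls of the same mouse number range the change was -3.65 (adjusted p = 0.0572), with Ttn as a covariate -2.72 (adjusted p = 0.118), and without control tumor 4 and Pbrm1-fl tumor 1 -3.32 (adjusted p = 0.0708). The call was also lost without control tumor 4, 5 or 13, or without any of Arid1a-fl tumors 1, 2, 4, 5, 7 and 8. Its adjusted p ran from 0.0284 to 0.110 over all single tumors left out. The fold change stayed between -4.60 and -3.31 in these fits, and the Arid1a-fl level rests on the 6 reads.

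The other T-cell members did not pass. In log2 units the change was -3.03 for Cd3e (SE 0.99, adjusted p = 0.0767), -2.94 for Cd8a (SE 1.09, adjusted p = 0.103), -2.85 for Foxp3 (SE 1.08, adjusted p = 0.0969) and -2.97 for Nkg7 (SE 1.28, adjusted p = 0.132). With Ttn as a covariate these 4 were -1.57, -1.14, -1.84 and -1.17 (adjusted p from 0.185 to 0.523). Other T-cell genes were not low, with Cd4 at 0.08, Lck at -0.04 (SE 0.24) and Zap70 at 0.75 (SE 0.48), and Csf1r was at -0.32 (SE 0.43). By lineage the median fold change was -1.65 over 7 T-cell genes, -1.31 over the 2 dendritic cell genes and -0.31 over 15 macrophage genes, against -0.043 over all genes and -0.52 over the 33 members. In all, 1 of 33 members was called, against 3.17% of all genes, a share of the members near that of all genes. At an unadjusted p under 0.05, 7 members were lower and none higher, against 12.8% of all genes lower and 23.0% changed in either direction. DESeq2 called 7 of the 39 members to which it gave an adjusted p, all lower, namely Cd3d, Cd3e, Cd8a, Cd8b1, Foxp3, Ctla4 and Pdcd1. It called 4.26% of all genes with any read, which include genes without an adjusted p. With Ttn as a covariate the member median was 0.15, and with the controls of the same mouse number range it was -0.10. All 16 skeletal muscle genes of the list also had fold changes below 0, with a median of -1.46, and the part of muscle content in the T-cell values was not tested beyond this covariate. All 12 proliferation genes had fold changes above 0 in Arid1a-fl tumors, 9 of them at an unadjusted p under 0.05, and their part was not tested.

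Among the 28 other T-cell and NK genes, a list that surrounds the members, 18 passed the filter and 1 was called, against 3.17% of all genes. Il2rb, a receptor chain for interleukin-2 and interleukin-15, fell by 2.72 on the log2 scale (SE 0.61, adjusted p = 0.0286), and 11 of the 18 were lower at an unadjusted p under 0.05, against 12.8% of all genes. Of 6 tested B-cell and plasma cell genes, 5 were lower at that threshold and none was called. The whole list of 11 such genes summed to 2878 CPM in control tumor 4, against medians of 23.7 CPM in controls and 10.6 CPM in Arid1a-fl tumors. No values of these genes without that tumor are given here, and its part in them was not tested. The call of Il2rb was lost without any of Arid1a-fl tumors 1, 2, 5, 7 and 8 (highest adjusted p = 0.0813), with values no nearer 0 than -2.53. Values below 0 at the unadjusted threshold were thus not limited to the members among the lymphocyte genes, with control tumor 4 among the controls.

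In hSS2 Arid1b-fl tumors no member passed the test. Of 33 tested members, 21 were above 0 and 12 below, with a median of 0.14 against 0.0045 over all genes. Neither edgeR nor DESeq2 called any, and at an unadjusted p under 0.05 edgeR gave 0 and DESeq2 gave 2 higher and 1 lower, against 0.0548% of all genes called and 6.22% at the unadjusted threshold by edgeR and 0.0443% called by DESeq2. The genes with the lowest p were myeloid. Trem2, a lipid receptor of macrophages, had 0.82 (SE 0.53, adjusted p = 0.838), Cd68, a lysosomal protein of macrophages, 0.61 (SE 0.40, adjusted p = 0.845), and Fcer1g, an Fc receptor chain, 0.59 (SE 0.47, adjusted p = 0.888). Arid1b-fl tumor 5 set these values apart from 0, and in it Cd68 was 77.0 CPM against at most 18.7 CPM in the other 7. Without it they were -0.26, -0.11 and -0.06.

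**Figure D5:**
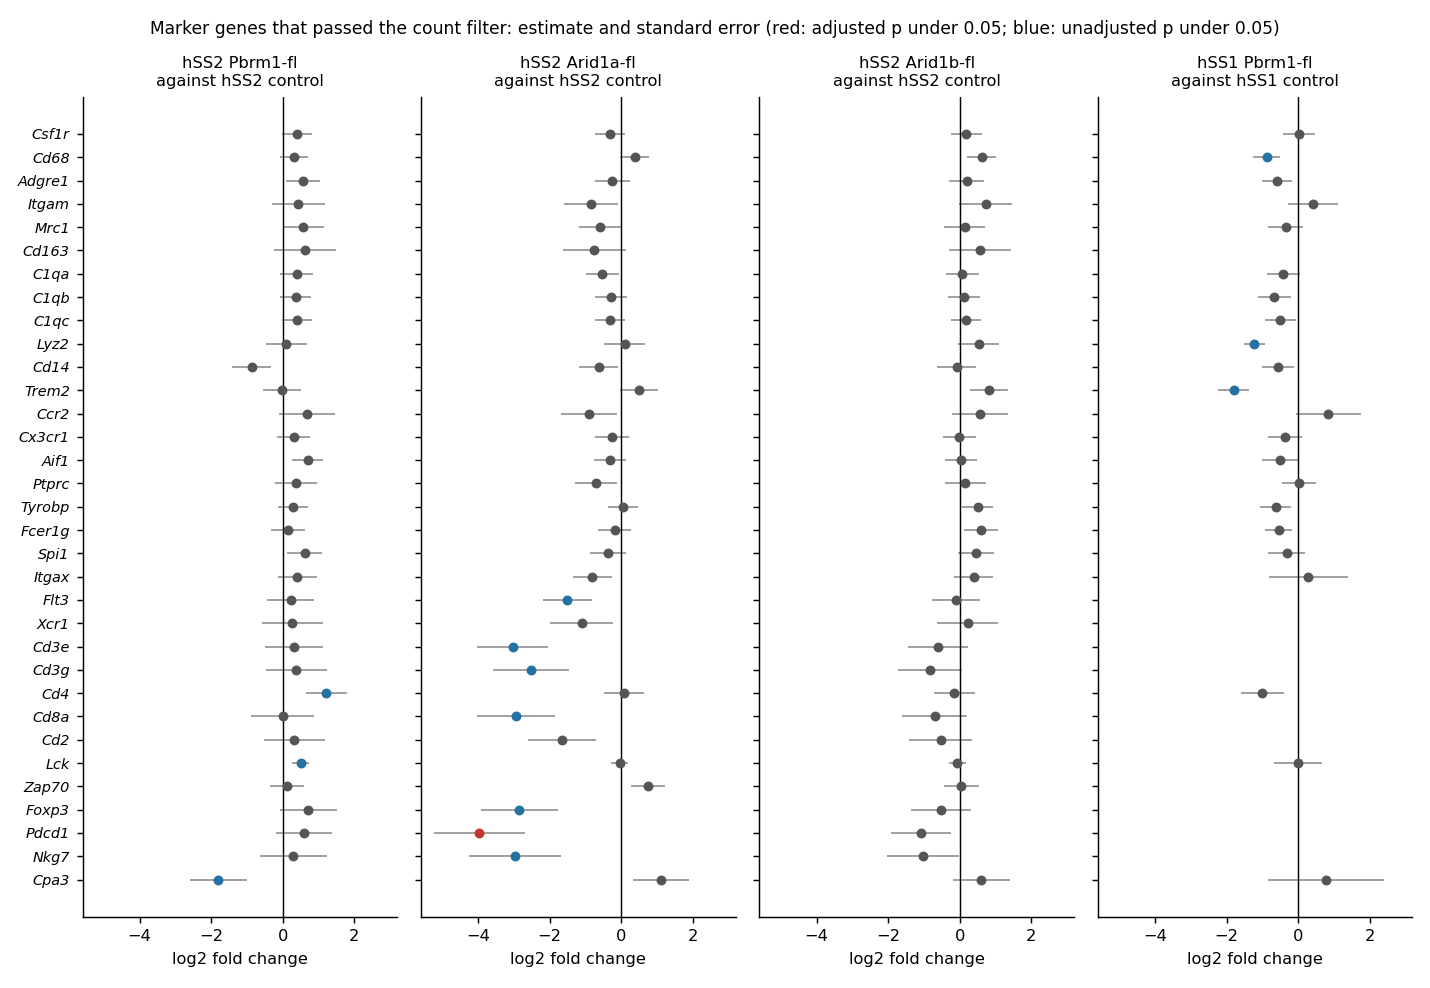
Log2 fold change (knockout over control) of each tested marker gene in the 4 comparisons with controls, with bars of 1 standard error, a line at 0, red points for an adjusted p under 0.05 and blue points for an unadjusted p under 0.05. In Arid1a-fl tumors the T-cell genes extend to -3.96 (Pdcd1, the only one called), and in hSS1 Pbrm1-fl tumors Trem2 (-1.81) and Lyz2 (-1.22) are the lowest with small errors.

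In hSS1, 22 of the 44 members passed the filter. No member passed the test in Pbrm1-fl tumors, and those with the lowest p were macrophage genes, all below controls. Lyz2 (ENSMUSG00000069516, chr10:117277331-117282321, minus strand, mm10) was 101, 59.2, 42.7, 75.2 and 76.9 CPM in the 5 controls and 39.4, 31.3, 33.6 and 17.6 CPM in the 4 Pbrm1-fl tumors. The change of Lyz2 was -1.22 log2 units (SE 0.29, adjusted p = 0.127). Trem2 (ENSMUSG00000023992, chr17:48346401-48354147, plus strand, mm10) was 5.94, 4.75, 2.14, 5.22 and 5.47 CPM in controls and 1.52, 1.27, 2.04 and 0.539 CPM in Pbrm1-fl tumors. The nearest values of the 2 groups differed little, and the fold change of Trem2 was -1.81 (SE 0.43, adjusted p = 0.128). Cd68 was 19.5, 10.1, 7.37, 22.1 and 26.5 CPM in controls and 8.83, 9.05, 12 and 7.19 CPM in Pbrm1-fl tumors, with overlap (log2 fold change -0.88, SE 0.38, adjusted p = 0.287). Over the 22 members the median was -0.46 against 0.011 over all genes, with 16 below 0. edgeR called none of them and 0.00562% of all genes. At an unadjusted p under 0.05, 3 members were lower and none higher, against 9.34% of all genes lower and 17.2% changed in either direction. DESeq2 called Lyz2 and Trem2, both lower, among the 25 members to which it gave an adjusted p. It called 3.63% of all genes with any read, which include genes without an adjusted p. Itgax, the integrin of dendritic cells and some macrophages, set 1 tumor apart, at 1.42, 0.724, 19.1 and 0.36 CPM in the Pbrm1-fl tumors against 0.643 to 7.48 CPM in controls. Without that tumor, Pbrm1-fl tumor 3, the member median was -0.88 and 9 members were lower at the unadjusted threshold. This was the lowest of the fits with 1 tumor left out. In the others the median ran from -0.62 to -0.26, with 2 to 4 members lower. The share of all genes at this threshold was not counted in these fits.

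The Pbrm1-fl effect was then compared between the backgrounds in 1 fit over both tables, in which 39 members were tested. Pbrm1 itself changed by -1.27 log2 units in hSS2 (SE 0.08, adjusted p = 4.2e-12) and by -0.75 in hSS1 (SE 0.24, adjusted p = 0.193). The difference in the joint fit was 0.51 (SE 0.19, adjusted p = 0.125). The study reports weaker depletion in the background with the smaller change, and proposes selection there for incomplete recombination of the floxed alleles. The part of unequal Pbrm1 loss in the values below was not tested. No member differed at the adjusted threshold by edgeR or DESeq2, where 2.86% of all genes did by edgeR and 2.83% by DESeq2. At an unadjusted p under 0.05, 1 member had a lower effect in hSS1 by edgeR and 2 by DESeq2, against 18.9% of all genes in either direction. It was Cd4, with a difference of -2.22 on the log2 scale (SE 1.02, adjusted p = 0.229). Trem2 had -1.80 (SE 0.91, adjusted p = 0.282). Cd8b1, a chain of CD8, had 4.73 (adjusted p = 0.282), but it was at 0 in all 5 hSS1 controls, so this value depends on the count added in the fit and bounds nothing. The median difference over the members was -0.37 against 0.016 over all genes. Single members had a median standard error of 1.01, so a difference of 1 log2 unit in a single member was not detectable at this number of tumors.

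Growth factors and chemokines that act on these cells, and other genes of the same lineages, gave a few calls. Over all genes edgeR called 7.35% in hSS2 Pbrm1-fl, 0.0548% in hSS2 Arid1b-fl and 2.86% for the difference between backgrounds. The number of genes tested over these lists is not given here, so the calls describe single genes and not the lists. In hSS2 Pbrm1-fl tumors Spp1, a matrix protein that macrophages also make, fell by 2.88 on the log2 scale (SE 0.78, adjusted p = 0.0384). Bst2, an interferon-induced surface protein also found on plasmacytoid dendritic cells, rose by 1.02 (SE 0.31, adjusted p = 0.0315), and the chemokine gene Cxcl14 rose by 2.61 (SE 0.79, adjusted p = 0.0367). Ccr7, which guides dendritic and T cells to lymph nodes, rose by 2.41 (SE 0.76, adjusted p = 0.0433), with 53.6 CPM in tumor 4. The values of Ccr7 and Cxcl14 rested on 1 tumor each, since Ccr7 was at 0.75 without tumor 4 (adjusted p = 0.588), and Cxcl14 at 0.26 without tumor 3 (adjusted p = 0.868). With single tumors left out, Spp1 lost its call in 9 of 21 fits and Bst2 in 6 (highest adjusted p = 0.0756 and 0.0729), with values no nearer 0 than -2.55 and 0.89. In Arid1b-fl tumors the platelet receptor genes Itgb3 and Gp1ba rose by 4.37 (SE 0.75, adjusted p = 0.00869) and 4.19 (SE 0.83, adjusted p = 0.0323), with Itgb3 at 440 CPM in tumor 5. Without that tumor they were at 0.26 (adjusted p = 0.999) and 0.64 (adjusted p = 0.978). In the comparison of backgrounds, Il34, a ligand of CSF1R, had a difference of 3.23 (adjusted p = 0.0466), and hSS1 Pbrm1-fl tumor 3, the highest for Csf1r in hSS1 at 61.5 CPM, had 58.2 CPM of Il34. Spp1 had a difference of 5.98 (adjusted p = 0.0387), with 185 CPM in the same tumor. Without it the differences were -0.12 for Il34 (adjusted p = 0.948) and 0.13 for Spp1 (adjusted p = 0.978).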

How the data were processed

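RNA of fresh frozen tumors was depleted of ribosomal RNA and sequenced as strand-specific libraries. The authors deposited raw counts of reads per gene, made, per the submitters' processing notes, with STAR 2.7.11 and featureCounts 1.6.3 on mm10; the annotation release, the strand setting and the handling of multimapping reads are not given in the sources used here. Exons overlapped a neighbor on the opposite strand for Csf1r, Cx3cr1, Cd3e and Foxp3, and on the same strand for Itgam, Lck, Klrb1c and Foxp3. There, reads of the neighbor may be included or shared reads left out, depending on settings that are not given. No pair of replicates agreed within sampling noise.

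Groups came from the genotype labels. Genes that passed filterByExpr were TMM-scaled and fitted with edgeR 4.0.16 (quasi-likelihood, robust), over 37 hSS2 tumors, over 9 hSS1 tumors and over all 46 for the difference between backgrounds, at an adjusted p of 0.05 (Benjamini-Hochberg). DESeq2 1.42.0, other scalings, filters, covariates and left-out tumors were alternatives. The code was tested on simulated data. The members and lists were chosen with earlier results of these data known. Named were the defining gene of each lineage, every member called or, where fewer than 3 were, the 3 with the lowest p, and called genes of the other lists; Lck, Zap70, Cd163, Cd2 and C1qc were added after their values were seen. P-values measure the spread between tumors of separate mice, as numbered in the labels.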

Additional observations from a re-analysis of the deposited data

Results flagged for a closer look

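In groups of 4 to 10 tumors, the defining genes of the lineages were searched for a tumor far from the rest of its group on the log2 CPM scale. Dixon's ratio of the gap to the range was used, in 98 tests of a gene in a group. The hSS2 control group was larger and was not searched. 6 values stood out, a number near what chance alone gives at about 1 in 20 groups. Pbrm1-fl tumor 1 in hSS2 had 6.72 CPM of Ms4a1, with the next at 0.122 CPM, and 4.97 CPM of Cd79a, with the next at 0.367 CPM. Arid1b-fl tumor 5 in hSS2 had 77.0 CPM of Cd68, with the next at 18.7 CPM, and 8.06 CPM of S100a8, with the next at 0.141 CPM. In hSS1, Pbrm1-fl tumor 1 had 0.475 CPM of Cd3e, with the next at 0.102 CPM, and control tumor 4 had 0.143 CPM of Nkg7, with the other controls at 0. The hSS1 values rest on a few reads each. No member's Pbrm1-fl effect passed the test of a difference between the backgrounds.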

How the results depend on the processing

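No member was called in hSS2 Pbrm1-fl, in hSS2 Arid1b-fl or in the difference between backgrounds under any alternative. In hSS2 Arid1a-fl, the count of 1 became 7 with DESeq2 and 0 with no filter on low counts (Pdcd1 adjusted p = 0.0678), with a mean of at least 1 CPM (which leaves Pdcd1 out), with Ttn as a covariate, with the controls of the same mouse number range, and without control tumor 4 and Pbrm1-fl tumor 1 (chosen after seeing the data). Leaving out single tumors gave 0 to 1. In hSS1 Pbrm1-fl, the count of 0 became 2 with DESeq2. Of 12 correlations (8 in hSS2), 7 passed over all tumors, all in hSS2 (pairs with Ttn pooled over its gap included), and 8 when centered on the genotype group. Of the 8 hSS2 pairs, 0 passed under mouse number 1000, 2 from 1000 to under 2000, 6 at 2000 and over, 1 under 1000 CPM of Ttn and 6 over it (ranges of Ttn chosen after seeing the data). Cpa3 with Csf1r turned to -0.059 under mouse number 1000. The cause of these changes was not tested, apart from fewer tumors within a range. At least 1 alternative changed the sign of the fold change for 17 of 33 tested members in Pbrm1-fl, 20 of 33 in Arid1a-fl, 25 of 33 in Arid1b-fl and 7 of 22 in hSS1. All 72 lineage levels moved by less than 1 SD under other scalings. Replicate numbers follow accession order, so no paired analysis was possible because no label pairs the tumors. Depth limits the lymphocyte genes, whose levels were often those of 3 reads or fewer.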
